A study of Homo sapiens with 7 samples.

Results

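Fibroblast growth factors (FGFs) are a family of signaling proteins, and the genes described here are 6 of them (FGF2, FGF5, FGF9, FGF11, FGF13 and FGF18) with the 4 receptor tyrosine kinases of the family (FGFR1, FGFR2, FGFR3 and FGFR4). The 10 genes were taken by name from a table of 19978 genes, and all 10 were present in it. Poly(A) RNA was measured in HEK-293, an established human embryonic kidney cell line, after 48 h in 1 of 3 media. The control medium was at pH 7.4 and held the solvent DMSO (2 samples), the acidosis medium was at pH 6.6 and held DMSO (3 samples), and the third medium was at pH 7.4 and held 10 µM SRPIN340, an inhibitor of kinases that phosphorylate SR splicing factors (2 samples). The vehicle DMSO was thus common to all groups, and acidosis and the inhibitor were not combined. All samples come from the same cell line, so the groups describe the response of cultured HEK-293 cells and of no other cell type. The comparisons ask how prolonged acidification, and inhibition of SR protein kinases at normal pH, move the mRNA levels of a gene used as a splicing example, FGF5, and of its family and receptors.

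A secreted FGF binds heparan sulfate chains at the cell surface together with a receptor, which dimerizes, phosphorylates itself and recruits the adaptor FRS2, from which the RAS-ERK cascade is switched on. ERK then induces ETV transcription factors and a set of feedback inhibitors, the Sprouty and SPRED proteins and the DUSP phosphatases, so that transcripts of these genes are widely used as readouts of the pathway. FGF11 and FGF13 belong to a separate branch, the FGF homologous factors, which stay inside the cell, do not act through the receptors in the usual way and bind voltage-gated sodium channels. In kidney development FGF receptors, above all FGFR1 and FGFR2, act in the growing ureteric bud and in the nephron progenitors around it.

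FGF5, a secreted ligand known for ending the growth phase of the hair follicle, was the gene of the family whose splicing the study assayed, so the sequences that define its exon 2 are shown. FGF5 (ENSG00000138675.17) spans bases 80266639 to 80336680 of chromosome 4 in the GRCh38 build and is read from the plus strand. Its canonical transcript in GENCODE release 44 has 3 exons. Exon 2 (chr4:80274909-80275012) is 104 nucleotides long and wholly coding, and the letters that follow are the reference genome, 5′ to 3′ on the plus strand, all in capitals because all are exonic.
FGF5 exon 2: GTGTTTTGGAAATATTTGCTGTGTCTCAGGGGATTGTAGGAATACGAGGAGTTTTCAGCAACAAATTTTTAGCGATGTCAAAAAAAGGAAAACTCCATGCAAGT

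Because 104 leaves a remainder of 2 when divided by 3, joining exon 1 straight to exon 3 shifts the reading frame. In the lines that follow the lower case letters end the upstream exon and the capitals begin the downstream exon, 15 bases on each side.
FGF5 exon 1 to exon 2 junction: aagccaatatgttaaGTGTTTTGGAAATAT
FGF5 exon 1 to exon 3 junction: aagccaatatgttaaGCCAAGTTCACAGAT
FGF5 exon 2 to exon 3 junction: aaactccatgcaagtGCCAAGTTCACAGAT

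Translated with exon 2, the canonical transcript has 268 codons before the stop. An annotated transcript without exon 2 has 123 codons, and its reading frame runs only 14 bases past the exon 1 to exon 3 junction before the stop. FGF5 has 5 annotated transcripts in all, of which 3 hold exon 2. The deposited value is a single estimated count for the gene that sums its transcripts, so inclusion of exon 2 was not measured by it.

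The boundaries of exon 2 with its introns are shown because they are what the splicing machinery reads, with exonic letters in capitals and intronic letters in lower case.
FGF5 intron 1 acceptor and exon 2 start: tttctgtcatcctagGTGTTTTGGAAATAT
FGF5 exon 2 end and intron 2 donor: AAACTCCATGCAAGTgtaagtagaaccact

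The study's own RT-PCR primers follow, with bases that match exon 2 in capitals. The reference pair gives a product of 141 nucleotides within exon 1, which both kinds of transcript hold. The junction pair gives a product of 70 nucleotides, and 4 bases at the 3′ end of its forward primer are in exon 2.
exon 1 forward: gctgccactgataggaaccc
exon 1 reverse: ccactggaaactgctctgct
exon 1-2 junction forward: ccacgaagccaatatgttaaGTGT
exon 1-2 junction reverse: TCCTCGTATTCCTACAATCCCCT

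**Figure D1:**
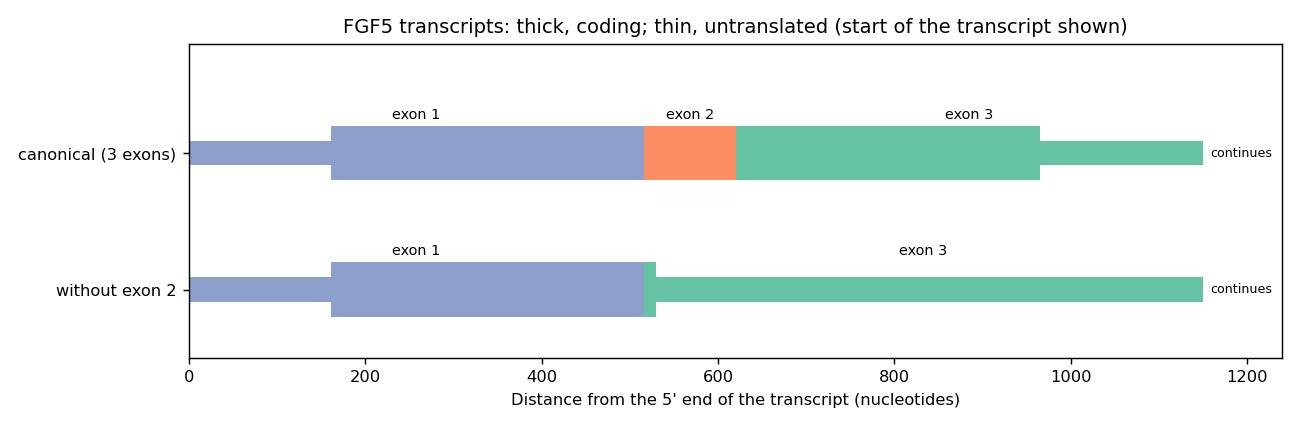
Map of 2 annotated FGF5 transcripts, drawn to scale in nucleotides from the 5′ end of the transcript and cut off within the 3′ untranslated part. Thick boxes are coding and thin boxes untranslated; exon 2 adds 104 coding nucleotides to the canonical transcript (268 codons), and without it the coding part ends 14 nucleotides into exon 3 (123 codons).

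The 7 samples held between 13615944 and 24110439 rounded counts, the lowest 2 totals being acidosis repeats 2 and 3, and 14863 genes passed the filter on low counts, all 10 FGF and FGFR genes among them. The 100 most abundant genes took 24.1% to 24.8% of the counts in acidosis and 15.2% to 15.4% at pH 7.4, with or without SRPIN340. Levels are given as CPM, the estimated count as a fixed multiple of its share in the library total, after that total was rescaled by TMM, a factor that balances the bulk of the genes between samples and lay between 0.782 and 0.800 in acidosis and between 1.17 and 1.21 elsewhere. Genes marking the embryonic kidney and HEK-293 identity were all detected (11 of 11 passed the filter), with summed levels of 1726 to 1781 CPM in control, 1722 to 1780 CPM with SRPIN340 and 3886 to 3911 CPM in acidosis, where the sum followed VIM. Of 6 markers of other cell types, ALB, MYOD1 and DCN did not pass the filter, and the 6 together summed to 3.75 to 4.84 CPM in control, 5.31 to 7.14 CPM with SRPIN340 and 2.58 to 3.03 CPM in acidosis. The study's methods describe the repeats of a group as biological, and p-values measure the spread between these samples. In bulk RNA, fewer cells that express a gene and less of its RNA per cell cannot be told apart.

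In acidosis the FGF genes moved in both directions. FGF2, FGF18, FGFR3 and FGFR4 were called higher and FGF5 and FGFR2 lower, where a call is a Benjamini-Hochberg adjusted p under 0.05 from edgeR's quasi-likelihood test with an absolute log2 fold change over 1. FGF13 passed the adjusted p alone, on the lower side, and FGF9, FGF11 and FGFR1 did not pass. Thus 4 of 10 were called higher, against 14.4% of all genes tested, and 2 of 10 lower, against 19.1%. Of the 4, FGF18 passed the filter on low counts only through its acidosis samples, where it was high. Its call therefore adds no support to that count. By adjusted p alone the counts were 4 higher and 3 lower, against 32.5% and 34.2% of all genes. The median log2 fold change of the 10 genes was 0.18, and that of all genes tested was -0.052.

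No FGF or FGFR gene passed with SRPIN340 in the main edgeR fit (0 of 10 on either side), where 0.767% of all genes tested passed on the higher side and 1.53% on the lower, and 0.128% and 0.195% were called. At an unadjusted p under 0.05 there were 2, FGF2 and FGFR3, both on the higher side, where 8.15% of all genes tested were. DESeq2 gave an adjusted p for 5 of the 10 genes in this comparison, and 1 of them, FGF2, passed without reaching the fold limit. The median log2 fold change was 0.033 for the 10 genes and 0.0024 for all genes tested.

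**Figure D2:**
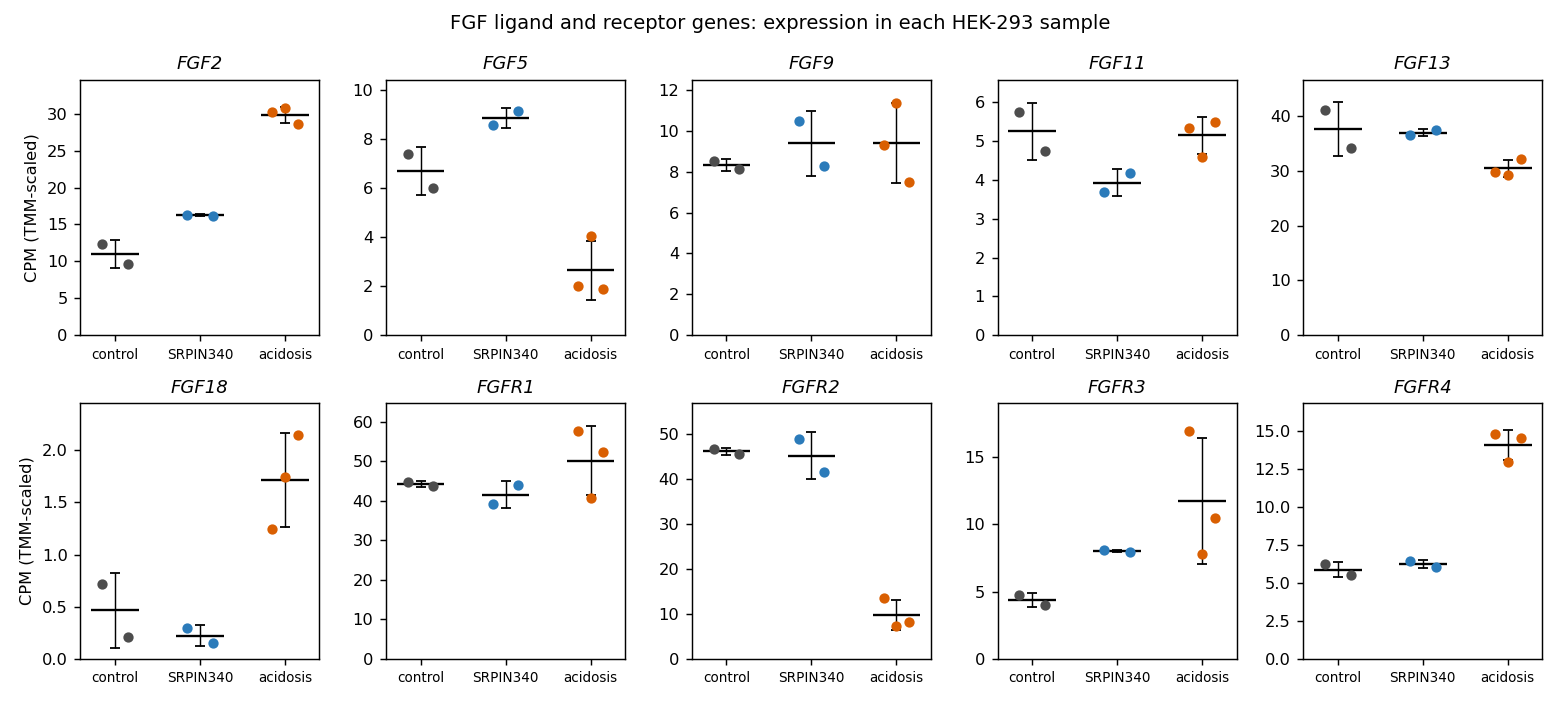
Expression of each of the 10 genes in CPM (linear axis from 0) in every sample, by group. Points are samples, horizontal lines group means and bars SD (n = 2, 2 and 3); all 3 acidosis samples lie above both control samples for FGF2, FGF18, FGFR3 and FGFR4 and below them for FGF5, FGF13 and FGFR2.

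FGF5 had the values 7.38 and 6.00 CPM in the control samples, 8.59 and 9.15 CPM with SRPIN340, and 2.02, 4.04 and 1.89 CPM in acidosis, from 205, 171, 233, 241, 34, 44 and 22 counts. All 3 acidosis samples were below every sample at pH 7.4, with acidosis repeat 2 closest to them, and both SRPIN340 samples were above both control samples. The control mean of 6.69 ± 0.977 CPM (SD, n = 2) fell 2.57-fold in acidosis, to 2.65 ± 1.21 CPM (SD, n = 3), and edgeR gave a log2 fold change of -1.36 with a standard error of 0.304 (adjusted p = 0.0029). It remained past the threshold when any single sample was left out, with log2 fold changes from -1.76 (without acidosis repeat 2) to -1.18 (without acidosis repeat 1). Leaving out a control or SRPIN340 repeat, here and in what follows, leaves that group with 1 sample, which the fit assumes to vary like the other groups. With SRPIN340 the log2 fold change was 0.41 with a 95% interval of -0.28 to 1.09 (adjusted p = 0.548 from edgeR), so that neither no change nor a rise of a log2 unit was outside the interval. Set directly against SRPIN340, FGF5 was lower in acidosis by 3.40-fold (log2 fold change -1.77, adjusted p = 0.000526 from edgeR). Of its exonic bases, 136 (2.28%) are shared with CFAP299, a gene on the same strand, and reads from these bases cannot be assigned to either gene with certainty.

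The gene whose level followed FGF5 most closely over the 7 samples was EFR3A (Pearson r of log2 CPM 0.998), which encodes a plasma membrane anchor of a lipid kinase complex. SHE (r = 0.998), which encodes an SH2 domain adaptor, and GPATCH11 (r = 0.994) came next. The 7 samples share their group structure, and 1893 of the 14862 other genes had r over 0.9, so a high r with FGF5 was common. EFR3A was at 47.2 and 43.2 CPM in control, 56.8 and 54.9 CPM with SRPIN340 and 20.4, 32.0 and 19.3 CPM in acidosis. Acidosis repeat 2 was the highest acidosis sample, as for FGF5, which the choice of EFR3A by this correlation made likely.

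FGF2, or basic FGF, is a broadly acting mitogen that leaves cells without a signal peptide. It was at 12.3 and 9.65 CPM in control, 16.3 and 16.2 CPM with SRPIN340 and 30.2, 30.8 and 28.6 CPM in acidosis. The 3 groups did not overlap, with SRPIN340 between control and acidosis. In acidosis FGF2 rose 2.72-fold, from a control mean of 11.0 ± 1.86 CPM (SD, n = 2) to 29.9 ± 1.10 CPM (SD, n = 3), with a log2 fold change in edgeR of 1.44 and a standard error of 0.141 (adjusted p = 1.19e-05). With SRPIN340 the log2 fold change was 0.57 (95% interval 0.23 to 0.90), which did not pass in edgeR (adjusted p = 0.0855) and passed in DESeq2 (adjusted p = 0.0317). Between SRPIN340 and acidosis the log2 difference was 0.88, higher in acidosis (edgeR, adjusted p = 0.000291). FGF2 shares 804 nucleotides, 11.8% of its exonic bases, with NUDT6 on the opposite strand, and strand use in the counting is not given in the sources used here, so reads from that stretch cannot be told apart.

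The counts of FGF2 and FGF5 within a library can be compared between libraries without any scaling. FGF2 had 1.61 to 1.66 counts per FGF5 count in control, 1.77 to 1.90 with SRPIN340 and 7.61 to 15.1 in acidosis. FGF2 was thus the more counted of this pair of receptor ligands in all 7 samples, by a wider margin in each acidosis sample than in any sample at pH 7.4.

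FGF18, a secreted ligand known from skeletal and lung development, was the least abundant of the 10 genes, with 20 and 6 counts in control, 8 and 4 with SRPIN340 and 21, 19 and 25 in acidosis. As CPM these were 0.720 and 0.211, then 0.295 and 0.152, then 1.25, 1.74 and 2.15. All acidosis samples were above all others, and control and SRPIN340 overlapped. FGF18 rose in acidosis with a log2 fold change in edgeR of 1.86 and a standard error of 0.624 (adjusted p = 0.024), but the call rested on a few counts: the log2 fold change was 1.21 without control repeat 2 (adjusted p = 0.178 from edgeR), 1.66 without acidosis repeat 3 (adjusted p = 0.0559) and 2.97 without control repeat 1 (adjusted p = 0.0173). With SRPIN340 the 95% interval of the log2 fold change was -2.68 to 0.62, so a fall of 1 log2 unit was inside the interval and a rise of 1 log2 unit was not. Between SRPIN340 and acidosis the log2 fold change was 2.89, higher in acidosis (edgeR, adjusted p = 0.00395).

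FGF9, a secreted ligand that maintains nephron progenitors, was at 8.54 and 8.14 CPM in control, 10.5 and 8.28 CPM with SRPIN340 and 9.32, 11.4 and 7.48 CPM in acidosis. The 3 groups overlapped. Its log2 fold change was 0.17 in acidosis (95% interval -0.29 to 0.63, adjusted p = 0.488 from edgeR) and 0.17 with SRPIN340 (95% interval -0.32 to 0.66, adjusted p = 0.754), so changes larger than 1 log2 unit were outside both intervals. FGF2 had 1.19 to 1.44 counts per FGF9 count in control and 2.70 to 3.83 in acidosis.

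Of the intracellular FGF homologous factors, FGF13 was at 41.1 and 34.1 CPM in control, 36.6 and 37.4 CPM with SRPIN340 and 29.9, 29.3 and 32.2 CPM in acidosis. The acidosis samples were below all others, and control and SRPIN340 overlapped. FGF13 fell in acidosis by a log2 value of -0.30, with a standard error of 0.113 (edgeR, adjusted p = 0.0367). This small change did not pass in DESeq2 (adjusted p = 0.0637) or without control repeat 1 (log2 fold change -0.17, adjusted p = 0.299 from edgeR), acidosis repeat 1 (-0.29, adjusted p = 0.0779) or acidosis repeat 2 (-0.28, adjusted p = 0.0732). With SRPIN340 its log2 fold change was -0.022 (95% interval -0.29 to 0.25).

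FGF11 was at 5.76 and 4.74 CPM in control, 3.69 and 4.18 CPM with SRPIN340 and 5.34, 4.59 and 5.50 CPM in acidosis. Both SRPIN340 samples were the lowest of the 7, and control and acidosis overlapped. The log2 fold change was -0.026 in acidosis (95% interval -0.52 to 0.47, adjusted p = 0.922 from edgeR), and it was -0.42 with SRPIN340 (95% interval -0.95 to 0.11, adjusted p = 0.41). With scaling by the total count alone, without TMM, FGF11 passed the adjusted p on the lower side in acidosis.

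Among the receptors, FGFR2, which in epithelium answers ligands from the neighboring mesenchyme, showed the largest change of the 10 genes in acidosis. It was at 46.7 and 45.6 CPM in control, 48.9 and 41.5 CPM with SRPIN340 and 13.5, 7.35 and 8.17 CPM in acidosis. All acidosis samples were far below the 4 samples at pH 7.4, which overlapped between groups. The mean of FGFR2 (chromosome 10) fell 4.66-fold in acidosis, from 46.1 ± 0.718 CPM in control (SD, n = 2) to 9.68 ± 3.36 CPM (SD, n = 3), and its log2 fold change in edgeR was -2.22 with a standard error of 0.212 (adjusted p = 1.01e-05). With SRPIN340 the log2 fold change was -0.030 (95% interval -0.51 to 0.45, adjusted p = 0.966 from edgeR), and acidosis was below SRPIN340 by 4.57-fold (adjusted p = 1.09e-05).

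FGFR4, a receptor best known from liver where it restrains bile acid synthesis, was at 6.23 and 5.51 CPM in control, 6.45 and 6.04 CPM with SRPIN340 and 14.8, 12.9 and 14.5 CPM in acidosis. The acidosis samples were above all others and the remaining groups overlapped. FGFR4 rose from 5.87 ± 0.510 CPM in control (SD, n = 2) to 14.1 ± 0.998 CPM in acidosis (SD, n = 3), where edgeR gave a log2 fold change of 1.26 with a standard error of 0.164 (adjusted p = 8.6e-05). With SRPIN340 its log2 fold change was 0.089 (95% interval -0.31 to 0.48).

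FGFR3, a receptor that limits the growth of long bones, was at 4.76 and 4.002 CPM in control, 8.07 and 7.93 CPM with SRPIN340 and 16.9, 7.80 and 10.5 CPM in acidosis. Both other groups lay wholly above the control samples, and acidosis overlapped with SRPIN340, its repeat 1 standing well above the rest. FGFR3 rose in acidosis with a log2 fold change in edgeR of 1.44 and a standard error of 0.300 (adjusted p = 0.00191), or of 1.07 without acidosis repeat 1 (adjusted p = 0.00271). With SRPIN340 the log2 fold change was 0.87 (95% interval 0.16 to 1.58, unadjusted p = 0.0213 and adjusted p = 0.192 from edgeR), which did not pass. The direct difference between acidosis and SRPIN340 was 0.57 (adjusted p = 0.103 from edgeR), and it passed without acidosis repeat 2 (0.79, adjusted p = 0.0145).

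FGFR1, the receptor most used by mesenchymal cells, was at 44.9 and 43.7 CPM in control, 39.1 and 44.1 CPM with SRPIN340 and 57.7, 40.8 and 52.3 CPM in acidosis. The 3 groups overlapped. The log2 fold change in acidosis was 0.19 (95% interval -0.13 to 0.50, adjusted p = 0.262 from edgeR), and without acidosis repeat 2, the lowest acidosis sample, it was 0.32 and passed (adjusted p = 0.0246). With SRPIN340 it was -0.089 (95% interval -0.43 to 0.25). FGFR1 shares 0.8% of its exonic bases with LETM2 on the opposite strand.

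**Figure D3:**
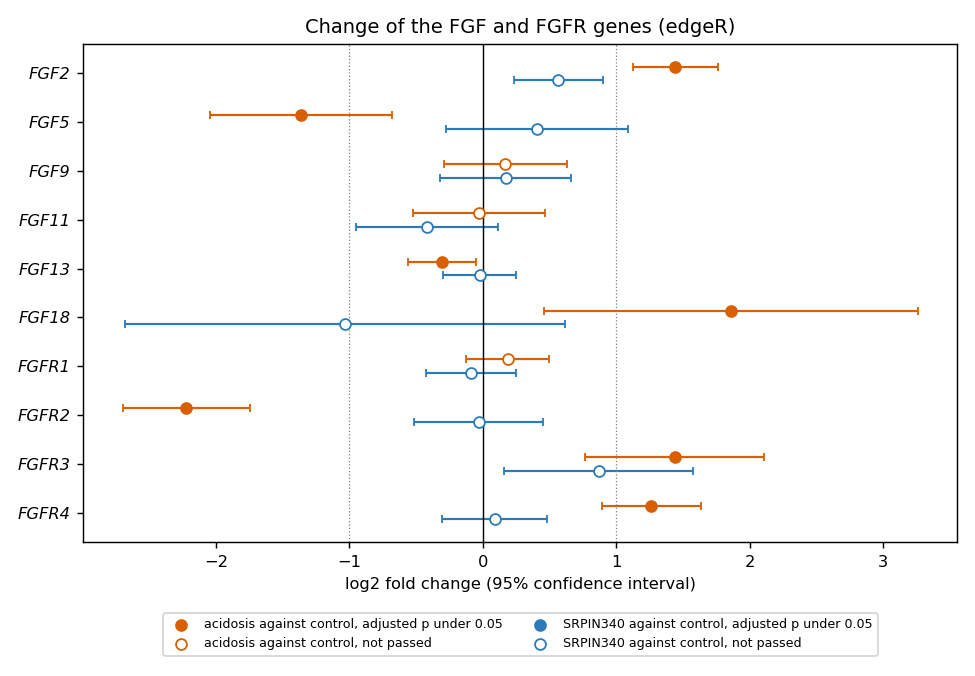
Log2 fold change against control (horizontal axis) of the 10 genes in acidosis (orange) and with SRPIN340 (blue), with 95% intervals from edgeR. Filled points have an adjusted p under 0.05, and dotted lines mark 1 log2 unit; 7 of the 10 acidosis points are filled, from -2.22 for FGFR2 to 1.86 for FGF18, and no SRPIN340 point is.

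Acidosis was also set against SRPIN340 directly, with no control sample in the contrast. By adjusted p, 3 of the 10 genes were higher in acidosis (FGF2, FGF18 and FGFR4, where 32.8% of all genes tested were higher) and 3 lower (FGF5, FGF13 and FGFR2, where 35% were lower). With the fold limit, 2 were called higher (FGF18 and FGFR4, against 14.9% of all genes) and 2 lower (FGF5 and FGFR2, against 19.7%). FGF18 was tested only because of its acidosis samples, so its call adds no support here either. FGF13 was again close to the limit (log2 fold change -0.28, adjusted p = 0.0489 from edgeR), and leaving out either SRPIN340 repeat or acidosis repeat 1 or 2 put it past 0.05, with adjusted p from 0.0951 to 0.175. The median over the 10 genes was 0.33 on the log2 scale, and -0.051 over all genes tested. With scaling by the total count alone, without TMM, 2 of the 10 passed on the higher side in place of 3. On the lower side 5 passed in place of 3, and FGF9 was among them.

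Scaling by the total count alone, without TMM, lowered the acidosis fold changes, and the median over all genes tested moved from -0.052 to -0.63. On that scale the calls in acidosis were 815 higher and 5202 lower, in place of 2145 and 2840. FGF5 and FGFR2 were then called with larger decreases (log2 fold changes -1.93 and -2.796). FGF2 (0.87), FGFR3 (0.86) and FGFR4 (0.69) still passed the adjusted p on the higher side but were under the fold limit, and FGF18 (1.29, adjusted p = 0.0861 from edgeR) did not pass, so the count called higher went from 4 to 0. FGF9 (-0.40) and FGFR1 (-0.39) changed sign, FGFR1 with an adjusted p of 0.0258 from edgeR. FGF11 newly passed the adjusted p, on the lower side. In all, 3 of the 10 genes then passed higher and 5 lower, in place of 4 and 3. All 4 genes that rose stood above the median of all genes on either scale, and the median of the 10 genes (-0.40) was above it as well. The change of scaling shifted all genes by nearly the same amount. Their place relative to that median was therefore bound to stay, and it adds no support to the calls.

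To compare levels between genes, CPM were divided by the length of the canonical transcript in kilobases. In control FGFR2 was the most abundant of the 10, at 9.98 ± 0.155 CPM per kb (SD, n = 2), followed by FGFR1 at 7.77 ± 0.151 CPM per kb, and their ranges did not overlap. This order rests on the transcript length: of the summed receptor level in control, FGFR1 had 42.8% and FGFR2 39.8% with the longest annotated transcripts, and 36.02% and 34.3% with the union of exons. FGF11 (2.04), FGF13 (1.92), FGFR4 (1.90), FGF9 (1.84) and FGF2 (1.65 CPM per kb) came next, each overlapping with its neighbor. Below them, and apart from one another, were FGF5 (1.26), FGFR3 (1.02) and FGF18 (0.233 CPM per kb).

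In acidosis the order of these length-scaled levels was different. FGFR1 was first at 8.82 ± 1.52 CPM per kb (SD, n = 3), followed by FGFR4 (4.55) and FGF2 (4.49 CPM per kb), which overlapped with each other. FGFR3 (2.73), FGFR2 (2.09), FGF9 (2.07) and FGF11 (2.00 CPM per kb) formed an overlapping run, and FGF13 (1.56 CPM per kb), with the next lower mean, overlapped with FGFR2. FGF18 (0.858) and FGF5 (0.499 CPM per kb) were lowest and overlapped, so FGF5 went from the eighth rank to the last. With SRPIN340 the order began with FGFR2 (9.77) and FGFR1 (7.31), as in control, and ended with FGF18 (0.112 CPM per kb). The canonical length is an assumption about which transcript was expressed.

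Shares of the 4 receptors within their own sum need no scaling between libraries. FGFR2 made up 47.8% and 48.7% of the summed CPM per kb in control, 49.4% and 43.7% with SRPIN340 and 13.5%, 10.8% and 9.77% in acidosis. FGFR4 made up 9.55% and 8.80% in control, 9.74% and 9.51% with SRPIN340 and 21.97%, 28.4% and 25.98% in acidosis. The acidosis samples lay outside the range of the pH 7.4 samples for both, FGFR2 below and FGFR4 above.

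FGFR3 had shares of 5.24% and 4.60% in control, 8.77% and 8.99% with SRPIN340 and 18.1%, 12.3% and 13.5% in acidosis, so the 3 groups were separate. FGFR1 had shares of 37.4% and 37.9% in control, 32.1% and 37.7% with SRPIN340 and 46.5%, 48.5% and 50.8% in acidosis. With canonical lengths, the share in acidosis did not overlap with that in control for any of the 4 receptors. The exact permutation test, made two-sided by doubling the smaller tail, gave p = 0.2 for each. That is the smallest p this form of the test allows for 3 samples against 2. The 4 shares add up to the whole and are not independent, so a lower FGFR2 share by itself makes the others higher. The level of FGFR1 itself did not pass in acidosis (log2 fold change 0.19, adjusted p = 0.262 from edgeR). With the union of exons the mean FGFR1 share was not higher in acidosis (33.4%) than in control (36.02%). The summed receptor level was 21.1 and 20.2 CPM per kb in control and 21.8, 14.7 and 18.1 CPM per kb in acidosis, and these overlapped (exact permutation p = 0.6).

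Ratios of counts, which need neither lengths nor scaling, moved the same way. Per FGFR2 count there were 0.957 to 0.962 FGFR1 counts in control, 0.801 to 1.06 with SRPIN340 and 4.26 to 6.40 in acidosis. Per FGFR2 count there were 0.121 to 0.134 FGFR4 counts in control, 0.132 to 0.145 with SRPIN340 and 1.09 to 1.78 in acidosis. FGFR2 thus went from about equal with FGFR1 in counts to the less counted of the pair, and from above FGFR4 to below it in all 3 acidosis samples.

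**Figure D4:**
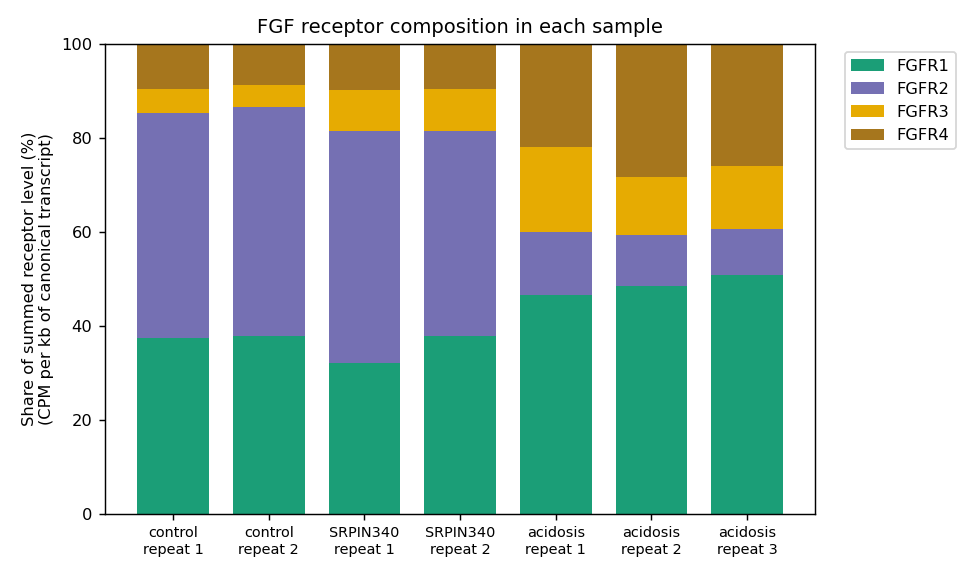
Share of FGFR1, FGFR2, FGFR3 and FGFR4 (percent of their summed CPM per kb of canonical transcript) in each of the 7 samples, as stacked bars from 0 to 100%. The FGFR2 band is 43.7% to 49.4% in the 4 samples at pH 7.4 and 9.77% to 13.5% in the 3 acidosis samples.

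Of the 22 FGF genes in the table, homologous factors included, 11 passed the filter on low counts, the 6 described above and FGF1, FGF7, FGF12, FGF17 and FGF22. FGF3, FGF4, FGF6, FGF10 and FGF16 were at 0 counts in all samples, which allows up to 0.105 to 0.275 CPM in a library (3 counts). FGF8, FGF14, FGF19, FGF20, FGF21 and FGF23 had some counts, at most 16 in a sample, and were not tested. FGF22 was at 0.432 and 0.316 CPM in control, 0.184 and 0.380 CPM with SRPIN340 and 1.25, 1.01 and 1.12 CPM in acidosis. These come from 9 to 12 counts in control and 11 to 21 in acidosis, and the acidosis samples were above all others. FGF22 rose with a log2 fold change in edgeR of 1.58 and a standard error of 0.534 (adjusted p = 0.0248), which did not pass without control repeat 1 (1.81, adjusted p = 0.0848), control repeat 2 (1.35, adjusted p = 0.161) or acidosis repeat 1 (1.498, adjusted p = 0.0528), nor in DESeq2 (adjusted p = 0.0699). Nor did it pass with total count scaling in edgeR, at an adjusted p of 0.112. Of FGF1, FGF7, FGF12 and FGF17, 0 of 4 passed in acidosis in edgeR or in DESeq2. In edgeR 32.5% of all genes tested passed on the higher side and 34.2% on the lower. At an unadjusted p under 0.05 there was 1, FGF7, on the lower side, where 35.8% of all genes tested were. With total count scaling 2 of the 4 passed on the lower side and 1 was called lower.

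FGF co-receptors and binding proteins, which present ligands or adhere to receptors, were tested for 17 of 20 listed genes. In acidosis 7 rose and 3 fell, where 32.5% and 34.2% of all genes did, and 3 were called higher and 1 lower, against 14.4% and 19.1% of all genes. The median log2 fold change was 0.35, and it was -0.22 with total count scaling, where 1 was called higher and 5 lower. SDC4, a heparan sulfate proteoglycan that binds FGF2, rose from 17.7 ± 0.506 CPM in control (SD, n = 2) to 191 ± 14.5 CPM in acidosis (SD, n = 3), and edgeR gave a log2 fold change of 3.43 (adjusted p = 8.31e-09). FGFRL1, a receptor of the family without a kinase domain, rose from 23.3 to 64.4 CPM (log2 fold change 1.47). FLRT3, a membrane protein that associates with FGF receptors, fell from 16.8 to 2.02 CPM (log2 fold change -3.01, adjusted p = 9.33e-07 from edgeR).

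Enzymes of heparan sulfate synthesis and editing were tested for 23 of 25 listed genes, of which 7 rose and 10 fell in acidosis, their median log2 fold change being -0.15, and 3 were called higher and 7 lower (1 and 9 with total count scaling). HS6ST1, which adds 6-O-sulfate to heparan sulfate, fell from 36.2 to 4.89 CPM (log2 fold change -2.86, adjusted p = 2.11e-07 from edgeR). NDST4, an N-sulfating enzyme, fell from 3.88 to 0.795 CPM (-2.24). XYLT1, which starts the chain by adding xylose to the core protein, rose from 0.373 to 2.50 CPM (2.74, adjusted p = 0.00221 from edgeR), from 10 and 11 counts in control. It passed the filter on low counts only through its acidosis samples, so its call adds no support to the 3 called higher. Of all genes tested, 32.5% rose and 34.2% fell, and 14.4% were called higher and 19.1% lower.

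Adaptors and members of the RAS-ERK cascade were tested for all 20 listed genes. In acidosis 10 rose and 7 fell (32.5% and 34.2% over all genes), 4 being called higher and 1 lower (14.4% and 19.1% over all genes). The median log2 fold change of 0.18 turned to -0.39 with total count scaling, where 1 was called higher and 6 lower. BRAF rose from 36.6 to 111 CPM (log2 fold change 1.602) and ARAF from 47.5 to 107 CPM (1.18), both being kinases that ERK signaling starts from. GAB1, a docking protein downstream of FRS2, fell from 26.0 to 10.3 CPM (-1.35, adjusted p = 4.08e-05 from edgeR).

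FGF targets and feedback inhibitors had the highest median of the lists in acidosis, 1.26 on the log2 scale, with 14 of 14 listed genes tested, of which 10 rose and 3 fell and 8 were called higher and 1 lower, beside 14.4% and 19.1% of all genes. The median stayed above 0 with total count scaling (0.69), where 6 were called higher and 4 lower. DUSP5, a nuclear phosphatase of ERK, rose from 19.2 ± 1.43 CPM in control (SD, n = 2) to 175 ± 4.04 CPM in acidosis (SD, n = 3), and its log2 fold change in edgeR was 3.18 (adjusted p = 8.31e-09). SPRY4, a Sprouty inhibitor, rose from 4.52 to 20.4 CPM (2.17), and ETV5, an ETS transcription factor, from 8.12 to 32.8 CPM (2.01). The list was not uniform, since ETV1, the only called member on the lower side and named after its value was seen, fell from 14.6 to 6.58 CPM (-1.14, adjusted p = 0.007 from edgeR). These genes answer to any input into ERK, and what set their levels was not tested.

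Voltage-gated sodium channel alpha subunits, the binding partners of the FGF homologous factors, were tested for 6 of 9 listed genes. In acidosis 1 rose and 3 fell, where 32.5% and 34.2% of all genes did. Their median log2 fold change was -0.80 (-1.37 with total count scaling). SCN9A fell from 31.2 to 9.39 CPM (log2 fold change -1.73, adjusted p = 7.87e-07 from edgeR) and SCN2A from 3.18 to 0.296 CPM (-3.46), the latter at 3 to 4 counts per acidosis sample. SCN11A rose from 0.786 to 2.56 CPM (1.70, adjusted p = 0.00819 from edgeR), a call lost without control repeat 2 (1.22, adjusted p = 0.0791).

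With SRPIN340, 0 of the 85 tested genes of the 6 lists passed in edgeR. At an unadjusted p under 0.05 there were 15 of 85, 8 higher and 7 lower, where 17.6% of all genes tested were under that limit, 8.15% higher and 9.48% lower. DESeq2 passed 6 (CBL, DUSP5, ETV5, EXTL3, HRAS and SHC1), none past the fold limit. Of the 7 lower ones, 5 were FGF targets or feedback inhibitors, DUSP5, DUSP6, ETV1, ETV4 and ETV5, named after their values were seen. ETV5 was at 6.34 and 9.90 CPM in control, 4.35 and 4.37 CPM with SRPIN340 and 33.4, 33.0 and 32.2 CPM in acidosis, so the 3 groups were separate and the conditions lay on opposite sides of control. Its log2 fold change with SRPIN340 was -0.90 (adjusted p = 0.0609 from edgeR and 0.0043 from DESeq2), and without control repeat 1 it was -1.18 and passed (adjusted p = 0.0427 from edgeR). The list of targets and feedback inhibitors had a median log2 fold change of -0.24 with SRPIN340, where the median of all genes tested was 0.0024.

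**Figure D5:**
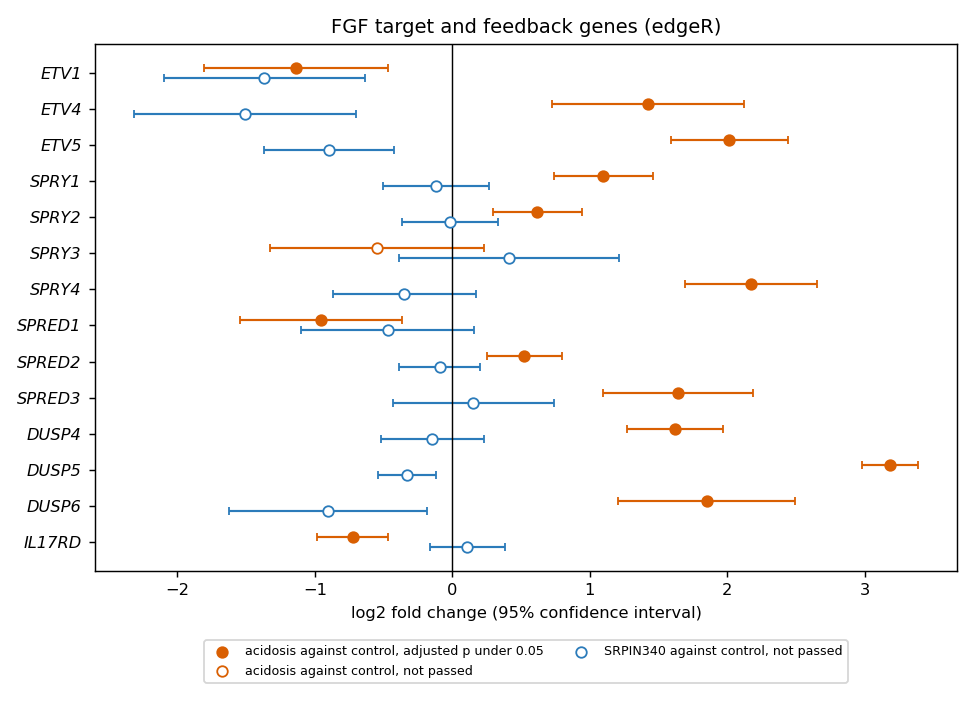
Log2 fold change against control (horizontal axis, with 95% intervals from edgeR) of the 14 FGF target and feedback genes in acidosis (orange) and with SRPIN340 (blue). Filled points have an adjusted p under 0.05; 13 of 14 acidosis points are filled, with DUSP5 the highest at 3.18, and no SRPIN340 point is.

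In the study's RT-PCR, TBP was the reference for gene expression, while exon inclusion was set against an adjacent constitutive exon. TBP was at 27.95 and 25.7 CPM in control, 28.9 and 27.4 CPM with SRPIN340 and 22.03, 21.8 and 18.8 CPM in acidosis. It fell in acidosis with a log2 fold change of -0.36 (edgeR, adjusted p = 0.0225), a change lost without control repeat 1 (-0.30, adjusted p = 0.128) or acidosis repeat 3 (-0.29, adjusted p = 0.0627).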

How the data were processed

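Per the labels and the study's methods, mRNA was captured from total RNA of HEK-293 cells and sequenced. The authors trimmed the reads (Trimmomatic 0.39 and Trim Galore 0.6.6 in the submitters' processing notes), quantified transcripts with Salmon 1.5.1 against a Gencode GRCh38.p13 transcriptome and deposited estimated counts per gene made with tximport, not normalized between samples; the tximport option is not given in the sources used here. Estimated counts were rounded to whole numbers, filtered with filterByExpr, TMM-normalized and tested in R 4.3.3 by edgeR 4.0.16 with its quasi-likelihood test, all 7 samples in 1 fit and Benjamini-Hochberg adjustment over 14863 genes. Both tools were checked on simulated counts of these genes with 200 of them changed by 2 log2 units, of which edgeR recovered 98.5% in acidosis (5 false calls) and 96.5% with SRPIN340 (1 false call). The 200 were drawn only from genes with higher mean counts than FGF18 or FGF22 had. Recovery at such low counts, or of smaller changes, was not measured.

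Alternatives were DESeq2 1.42.0, RLE size factors, total count only, no filter, a mean of at least 6 CPM, only the groups compared, a replicate block, no fold limit, other transcript lengths and each sample left out. Members and gene lists were chosen with earlier results of these data known. Named genes were the 10 members, the 3 called genes of each list with the largest acidosis change, any list gene called with SRPIN340, the 3 genes most correlated with FGF5, and TBP. Gene models came from GENCODE release 44, which 19977 of 19978 identifiers matched, and sequences were read with Python 3.11.15 from the GRCh38 genome and the study's primer list. Figures were drawn with matplotlib 3.10.9. Intervals on log2 fold changes are 95% intervals from the edgeR fit. The counting floor was 3 counts in a library and covers counting error only.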

Additional observations from a re-analysis of the deposited data

How the results depend on the processing

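Of the single-gene results recomputed under the alternatives, 496 kept their direction and their side of the adjusted p limit, 28 no longer passed it, 10 newly passed it and 19 changed sign, each of the last being a gene that had not passed. With the fold limit as well, 17 calls were lost and 1 was gained. FGF2, FGF5, FGFR2, FGFR3 and FGFR4 passed in acidosis against control under every alternative that was run. With scaling by total count only, the FGF and FGFR genes called higher in acidosis numbered 0 in place of 4 (1 in place of 2 against SRPIN340), and list genes called higher and lower 10 and 28 in place of 20 and 12 (9 and 29 in place of 16 and 13 against SRPIN340). On that scale log2 fold changes of -0.40 for FGF9 and -0.39 for FGFR1 (acidosis against control), 0.018 for FGF13 and 0.0097 for FGFR2 (SRPIN340 against control), and -0.22 for FGF11, -0.34 for FGFR1 and -0.048 for FGFR3 (acidosis against SRPIN340) had the opposite sign, and FGFR1 passed on the lower side in both of its comparisons. With total count scaling FGF11 in acidosis against control and FGF9 in acidosis against SRPIN340 newly passed, both on the lower side. Without the fold limit, list calls were 36 higher and 26 lower in acidosis against control and 36 and 27 against SRPIN340. The mean of at least 6 CPM removed FGF11 and FGF18 and left 1 gene called higher against SRPIN340. With no filter or only the groups compared 1 list gene was called lower with SRPIN340 in place of 0. FGF9 in acidosis against SRPIN340, near 0 in the main fit, was 0.020 with DESeq2 and 0.030 with RLE size factors.

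Leaving out 1 sample gave log2 fold changes from -0.18 to 0.12 for FGF11 in acidosis, and with SRPIN340 from -0.010 to 0.33 for FGF9, from -0.15 to 0.12 for FGF13, from -1.66 to 0.085 for FGF18 and from -0.15 to 0.083 for FGFR2, from -0.17 to 0.17 for FGF9 in acidosis against SRPIN340, and 0 to 1 list genes called lower with SRPIN340. Receptor shares depend on the length used. With the longest annotated transcript the control shares were 42.8% FGFR1, 39.8% FGFR2, 6.09% FGFR3 and 11.4% FGFR4, and FGFR2 was 8.17% in acidosis. With the union of exons they were 36.02%, 34.3%, 12.6% and 17.1% in control and 33.4%, 5.77%, 26.9% and 33.97% in acidosis, so that the FGFR1 share was not higher in acidosis. With no length correction they were 43.99%, 45.8%, 4.34% and 5.83% in control, and in acidosis FGFR1 was 58.8% and FGFR4 16.7%.

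With a replicate block, which the labels' repeat numbers allow, calls over all genes were 2064 higher and 2794 lower in acidosis and 5 higher and 22 lower with SRPIN340. Deviations of same-numbered samples from their group means correlated at -0.057 and -0.115 between control and acidosis. These correlations were 0.0051 between control and SRPIN340, and 0.063 and 0.042 between SRPIN340 and acidosis. In a group of 2 samples the deviations mirror each other, so these values cannot tell whether same-numbered samples were paired. The block moved FGF18 to an adjusted p of 0.0529, FGF13 to 0.0545, FGF22 to 0.0616 and TBP to 0.0937 in acidosis against control, FGF13 to 0.0643 against SRPIN340, and FGF9 against SRPIN340 to a log2 fold change of 0.14. The cause of these changes was not tested. Depth limits FGF18 and FGF22, at 4 to 25 counts per sample.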
